A study of Mus musculus with 6 samples.

Results

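The AP-1 family of Fos and Jun genes was followed in the arcuate nucleus (ARC) of male mice kept on a normal chow diet (NCD) or a high-fat diet (HFD). Its members were the 7 genes *Fos*, *Fosb*, *Fosl1*, *Fosl2*, *Jun*, *Junb* and *Jund*, found by symbol among the 22322 Ensembl genes of the deposited count table. Of these, 6 passed the filter on low counts that left 14188 genes for the test, and *Fosl1* did not. Males entered either diet at 4 weeks of age, NCD with 16.5% fat or HFD with 60% fat, and stayed on it for 16 weeks. The study's wild type mice were C57BL/6J, and its Kiss1-Cre mice, in which Cre is made in *Kiss1* cells, were crossed with R26R-EYFP reporters to show where those cells lie in the ARC. Whether the sequenced animals carried these alleles was not stated. ARC tissue was freed with a laser from frozen brain sections of 20 μm (laser capture microdissection, LCM), so a sample held RNA of neurons, glia and vessels alike. There were 3 samples per diet, NCD1 to NCD3 and HFD1 to HFD3, titled C and H with the same numbers. C was read as NCD and H as HFD from the study's names for its diets, and every direction given here rests on that reading. Whether a sample was a single animal or a pool was not stated, so spreads and p-values refer to these samples only. The total count was 15925648, 9937632 and 6882449 in NCD1 to NCD3 and 8024664, 10479778 and 5171381 in HFD1 to HFD3. Levels of a gene are given in CPM (counts scaled to the library total, with TMM factors). Differences are log2 fold changes of HFD against NCD with their SE, from edgeR's quasi-likelihood fit. That SE is the absolute log2 fold change divided by the square root of the test's F statistic, so it restates the test. A level between genes is given in FPKM (fragments scaled to transcript length and sequencing depth), as deposited.

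The labelled tissue was checked against its markers. All 11 ARC neuron markers were detected, with summed levels of 1611, 2894 and 2200 CPM in NCD1 to NCD3 and of 2484, 2367 and 2895 CPM in HFD1 to HFD3. *Cartpt*, which encodes the CART peptide, was the most abundant at a mean of 734 CPM. *Kiss1*, the kisspeptin gene, was at 0 counts in NCD1 and HFD1 and between 2.07 and 7.90 CPM in the other samples, so those libraries lacked this one marker of the ARC. The samples also held astrocyte, oligodendrocyte, microglia, vessel and tanycyte markers, as the capture of a whole area implies.

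AP-1 is a dimer of basic leucine zipper proteins. Jun proteins can pair with each other or with a Fos protein, whereas Fos proteins need a partner, and the dimers bind the element TGACTCA. *Fos*, *Fosb*, *Jun* and *Junb* are immediate early genes, transcribed within minutes of neuronal firing or growth factor signalling through CREB, SRF and Elk factors, and *Fos* is widely used as a marker of recently active neurons. *Jund* is the member with the steadiest transcription in most tissues. Gene counts cannot separate *Fosb* from its truncated splice form, which lasts longer as a protein.

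The starts of these immediate early members are shown because the genes named upstream of the family act there. The 250 bases before the RefSeq transcription start were read from the RefSeq promoter table for GRCm38.p6, which held 6 of the 7 members. *Fos* (+ strand) is shown at chr12:85473640-85473889, *Fosb* (- strand) at chr7:19310046-19310295, *Jun* (- strand) at chr4:95052223-95052472 and *Junb* (- strand) at chr8:84978749-84978998. Each is written 5′ to 3′ on the strand of the gene, with capitals for the motifs found among TGACG, TGACATCA and TATAAA.
Fos: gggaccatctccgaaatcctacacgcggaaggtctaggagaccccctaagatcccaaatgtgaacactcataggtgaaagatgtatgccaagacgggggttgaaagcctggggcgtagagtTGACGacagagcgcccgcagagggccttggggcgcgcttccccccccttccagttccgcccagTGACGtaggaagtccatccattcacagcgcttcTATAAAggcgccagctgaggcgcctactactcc
Fosb: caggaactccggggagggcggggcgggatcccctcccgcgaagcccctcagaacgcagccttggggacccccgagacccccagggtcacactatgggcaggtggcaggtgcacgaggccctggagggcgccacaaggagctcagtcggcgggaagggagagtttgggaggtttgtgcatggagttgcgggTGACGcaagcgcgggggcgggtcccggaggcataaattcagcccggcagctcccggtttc
Jun: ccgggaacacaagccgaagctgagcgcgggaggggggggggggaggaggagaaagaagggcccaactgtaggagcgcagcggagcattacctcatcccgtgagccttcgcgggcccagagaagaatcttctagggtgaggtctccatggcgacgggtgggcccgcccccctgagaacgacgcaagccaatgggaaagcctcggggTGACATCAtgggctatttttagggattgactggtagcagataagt
Junb: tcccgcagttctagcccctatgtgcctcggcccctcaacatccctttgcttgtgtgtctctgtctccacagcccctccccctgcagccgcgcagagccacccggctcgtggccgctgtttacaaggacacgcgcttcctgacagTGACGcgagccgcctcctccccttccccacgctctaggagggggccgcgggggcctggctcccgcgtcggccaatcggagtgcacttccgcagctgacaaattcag

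Motifs were searched as exact letters on both strands, and TATAAA on the strand of the gene only. TGACG, the core of the cAMP response element to which CREB binds, lay at 129 to 125 and at 66 to 62 bases before the start of *Fos*, at 60 to 56 in *Fosb* and at 106 to 102 in *Junb*. It was thus in 3 of the 6 members with a promoter and in 17.8% of the 32851 promoters of the table. TGACATCA, a variant AP-1 element, lay at 45 to 38 bases before the start of *Jun* alone among the 6, and in 2.93% of all promoters. TATAAA lay at 33 to 28 in *Fos* alone, and in 7.59% of all. The full element TGACGTCA (1.55% of all promoters, and a string that contains TGACG), the AP-1 element TGACTCA (4.46%) and the CArG box bound by SRF (1.47%) were in none of the 6 windows, which says only that these letters are not in the windows searched. For *Jund* and *Fosl2* the RefSeq start lies far from the GENCODE gene start given further on, and their windows are not shown. For *Fosb* and *Junb* the starts of the 2 annotations are close but not the same. Among the 11045 genes tested with a promoter in the table, the median difference was 0.00 on the log2 scale. It was -0.00 in the 3232 genes other than the members that hold TGACG and -0.00 in the 425 that hold TGACTCA, and both medians lay at that of all genes. Past the study's threshold (p under 0.05 and a fold above 1.5, unadjusted) were 1.83% of the genes with TGACG, 2.12% with TGACTCA, 2.42% with TGACGTCA, 2.61% with TGACATCA, 2.75% with TATAAA and 1.27% with a CArG box, against 1.73% of all, and no test of these shares was made. Called lower at an adjusted p under 0.05 were 3 of the 3232 with TGACG and 1 of the 158 with a CArG box, beside 0.0493% of all genes tested, and none with the other motifs.

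Of the 3 Fos genes that could be tested, *Fos* was called lower in HFD, with the largest difference of the family, while *Fosb* and *Fosl2* had values below 0 that overlapped between diets and were not called. *Fos*, on chr12:85473890-85477273 (+), encodes the partner of Jun proteins most often used to mark active neurons. It was at 80.2, 149 and 121 CPM in NCD1 to NCD3 and at 16.9, 17.7 and 32.7 CPM in HFD1 to HFD3. The lowest NCD sample lay well above the highest HFD sample, and the mean was 117 ± 34.7 CPM under NCD against 22.5 ± 8.91 CPM under HFD (SD, n = 3), 0.192 of the NCD level. The log2 fold change was -2.39 ± 0.30 (SE), and it ranged from -2.75 to -2.17 when each sample was left out in turn. Counts of *Fos* were 802 or more in NCD and 136 to 180 in HFD, so counting error is small beside the spread between samples.

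*Fosb*, on chr7:19302696-19310051 (-), encodes a close relative of *Fos*, and it was a low gene with wide scatter. It was at 2.05, 8.14 and 7.67 CPM in NCD1 to NCD3 and at 1.74, 0.493 and 4.33 CPM in HFD1 to HFD3. The diets overlapped, since NCD1 lay below HFD3 and not far above HFD1. The mean was 5.95 ± 3.39 CPM under NCD and 2.19 ± 1.96 CPM under HFD (SD, n = 3). The difference on the log2 scale was -1.52 ± 0.68 and ranged from -2.42 to -0.99 over the fits without 1 sample. These values rest on 34, 80 and 51 counts in NCD and on 14, 5 and 23 in HFD.

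*Fosl2*, on chr5:32135801-32157842 (+), encodes Fra-2, a Fos protein that lacks the strong activation domain of *Fos*. It was at 11.1, 19.3 and 31.4 CPM in NCD1 to NCD3 and at 10.3, 8.48 and 13 CPM in HFD1 to HFD3. Only NCD1 lay within the HFD range, and the NCD samples spread more widely than the HFD samples. The means were 20.6 ± 10.2 and 10.6 ± 2.26 CPM (SD, n = 3), and the log2 fold change of -0.96 ± 0.35 moved to -0.53 without NCD3, which held the highest value. *Fosl1*, on chr19:5447547-5455946 (+), encodes Fra-1 and had 18 counts in all 6 libraries, 8, 3 and 2 in NCD1 to NCD3 and 5, 0 and 0 in HFD1 to HFD3. A count of 0 allows up to 0.286 CPM in HFD2 and 0.58 CPM in HFD3 (3 counts, counting error only), so no difference was detectable at this depth. It also shares 1163 exonic bases with *Ccdc85b* on the opposite strand, which had 5373 counts, and whether the counting used strand was not given.

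Of the 3 Jun genes, only *Junb* was called. *Junb*, on chr8:84974484-84978718 (-), encodes a Jun protein that activates transcription more weakly than that of *Jun*. It was at 73.7, 127 and 94.8 CPM in NCD1 to NCD3 and at 30.9, 25.3 and 32.0 CPM in HFD1 to HFD3. The diets were apart in every sample, and the HFD values lay close to each other. The mean was 98.5 ± 26.8 CPM under NCD, 3.35 times the 29.4 ± 3.58 CPM under HFD (SD, n = 3), and the log2 fold change was -1.74 ± 0.24, from -1.93 to -1.52 without 1 sample. *Junb* shares 173 exonic bases with the peroxiredoxin gene *Prdx2* on the opposite strand, whose own mean was 306 CPM under NCD and 339 CPM under HFD (0.15 ± 0.22 on the log2 scale).

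*Jun*, on chr4:95049034-95052222 (-) with a single exon, is the founding partner of *Fos* and is phosphorylated by JNK kinases. It was at 60.5, 75.4 and 48.9 CPM in NCD1 to NCD3 and at 40.9, 46.5 and 55.9 CPM in HFD1 to HFD3. The ranges overlapped, with NCD3 below HFD3. The means of 61.6 ± 13.3 and 47.8 ± 7.57 CPM (SD, n = 3) differed by about as much as the NCD samples spread, and the log2 fold change was -0.37 ± 0.22. *Jun* shares 232 exonic bases with the antisense gene *Junos*, which was not analysed here.

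*Jund*, on chr8:70698949-70700616 (+) with a single exon, was the only member tested whose HFD mean lay above its NCD mean. It was at 95.3, 94.5 and 93.9 CPM in NCD1 to NCD3, the tightest group of values in the family. In HFD it was at 196 CPM in HFD1, 62.5 CPM in HFD2 and 214 CPM in HFD3, so HFD2 lay below every NCD sample and the other HFD samples above them. The means were 94.6 ± 0.711 and 157 ± 82.7 CPM (SD, n = 3), and the log2 fold change of 0.73 ± 0.35 ranged from 0.45 to 1.11 without 1 sample, highest when HFD2 was left out, where *Jund* also passed the study's threshold. *Jund* shares 877 exonic bases with the antisense gene *Gm11175*, which was not analysed here.

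**Figure D1:**
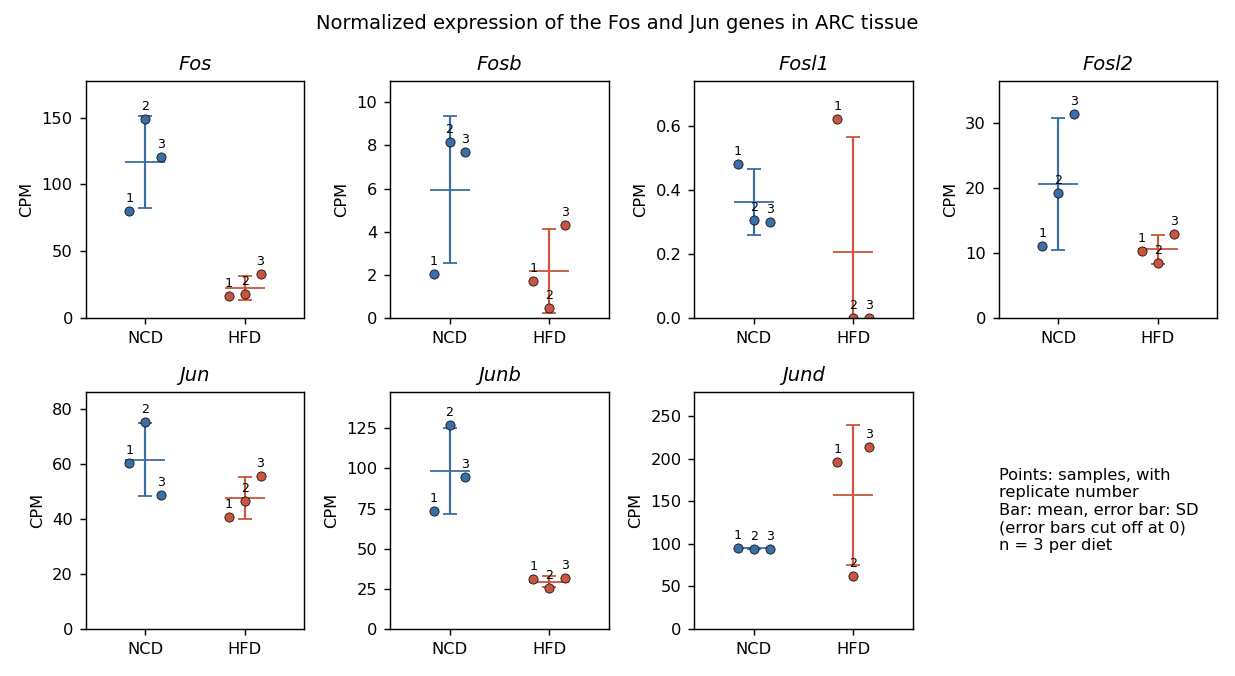
Each panel plots 1 gene, with CPM on a linear axis from 0, each sample as a point with its replicate number, and the mean and SD of the 3 samples of a diet as bars. *Fos* and *Junb* have no overlap between diets, *Fosb*, *Fosl2* and *Jun* overlap, and *Jund* in HFD has 2 samples near 200 CPM and 1 at 62.5 CPM.

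The members were chosen by their family name after their HFD against NCD differences in these 6 samples were known, so the calls are a description and nothing is read from them. Among all genes tested, 8 were called at an adjusted p under 0.05 (0.0564%), 7 of them lower in HFD (0.0493%), and 2 members, *Fos* and *Junb*, were among those 7. An unadjusted p under 0.05 was found for 326 genes (2.3%), and 4 members were among them. At the study's threshold there were 270 genes (1.9%), 126 lower (0.888%) and 144 higher (1.01%), and 4 members, *Fos*, *Fosb*, *Fosl2* and *Junb*, were among the lower ones. Samples of the diets did not overlap in 918 genes (6.47%), 459 of them lower (3.24%), which include the 2 members *Fos* and *Junb*. A log2 fold change below 0, with no threshold, was found in 49.5% of all genes tested and in 5 of the 6 members, and the median over all genes was 0.00. In such bulk samples, fewer cells that express a gene and less RNA per cell cannot be told apart. *Fos* and *Junb* were both called in the fit of all samples, but neither was called without HFD1, without HFD2 or without NCD2, and only *Fos* without HFD3. In those fits their log2 fold changes lay within the ranges given above. *Fosl2* was called as well in the fit that held the log2 total count.

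**Figure D2:**
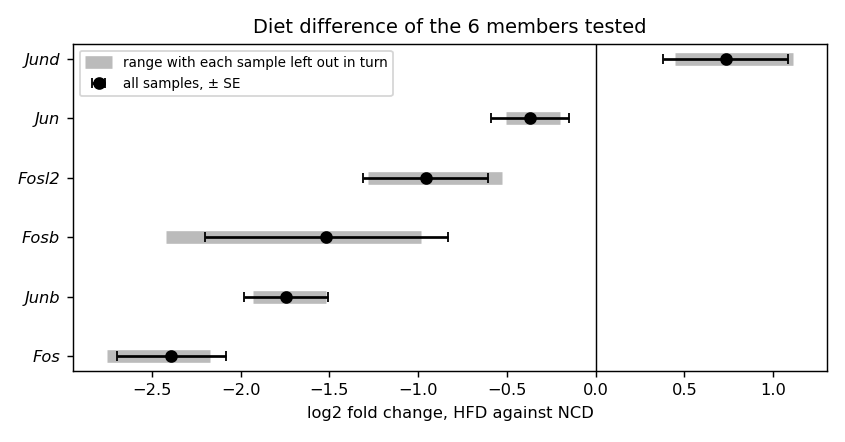
The horizontal axis is the log2 fold change of HFD against NCD for the 6 members tested, with points and error bars for the fit of all samples (± SE) and grey bars for the range over the 6 fits that leave out 1 sample. *Fos* (-2.39) and *Junb* (-1.74) lie farthest below 0 relative to their SE, *Fosb* has the widest range, and *Jund* (0.73) lies above 0.

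Per length, the family was made up mostly of *Jund*, *Fos*, *Junb* and *Jun*. In NCD the levels in FPKM ran from *Jund* (56.7 ± 2.68) through *Fos* (55.0 ± 15.2), *Junb* (54.2 ± 13.8), *Jun* (19.3 ± 4.30), *Fosl2* (3.12 ± 1.45) and *Fosb* (1.62 ± 0.874) to *Fosl1* with a mean of 0.337 (SD, n = 3). The means of *Jund*, *Fos* and *Junb* lay within 1 SD of each other. The ranges of mean ± SD of *Fosl2* and *Fosb* met, although *Fosl2* was above *Fosb* in each of the 6 libraries. In HFD the order was *Jund* (95.3 ± 51.6), *Junb* (16.3 ± 2.42), *Jun* (15.0 ± 2.68), *Fos* (10.7 ± 4.54), *Fosl2* (1.63 ± 0.392), *Fosb* (0.633 ± 0.572) and *Fosl1* with a mean of 0.15 FPKM, in which the ranges of mean ± SD of *Junb*, *Jun* and *Fos* met. Within each HFD library, however, *Fos* was below both *Junb* and *Jun*. *Fos* lay above *Jund* in NCD2 and NCD3 and below it in NCD1, and *Jund* was the highest member in every HFD sample. Ranked by the mean FPKM of the 6 samples, which pools diets that differ for some members, *Jund* lay above 90.8% of the genes tested, *Junb* above 81.3%, *Fos* above 80.0% and *Jun* above 65.8%, whereas *Fosl2* lay above 19.6%, *Fosb* above 9.23% and *Fosl1* above 0.367%.

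The balance between the Fos and the Jun genes also differed in level between the diets, which follows from the values above and is no separate evidence. The Fos genes summed to 42.5, 75.5 and 62.1 FPKM in NCD1 to NCD3 and to 10.6, 9.55 and 19.3 FPKM in HFD1 to HFD3. The Jun genes summed to 122, 149 and 120 FPKM in NCD1 to NCD3 and to 148, 64.0 and 168 FPKM in HFD1 to HFD3. The sums of the Fos genes were apart between the diets, while those of the Jun genes overlapped, with HFD2 the lowest of all 6 samples. The ratio of the 2 sums was 0.349, 0.507 and 0.519 in NCD1 to NCD3 and 0.0715, 0.149 and 0.115 in HFD1 to HFD3. Within the Jun genes, *Jund* held 44.0% ± 5.75 of the FPKM in NCD and 71.6% ± 12.9 in HFD, *Junb* 41.2% ± 5.94 and 14.5% ± 5.78, and *Jun* 14.8% ± 2.10 and 13.8% ± 7.21 (SD, n = 3). Within the Fos genes, *Fos* held 91.7% ± 2.37 in NCD and 81.4% ± 4.80 in HFD, and *Fosl2* 5.18% ± 2.0 and 12.9% ± 2.19. FPKM of mRNA are not amounts of protein, and which dimers formed was not measured.

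**Figure D3:**
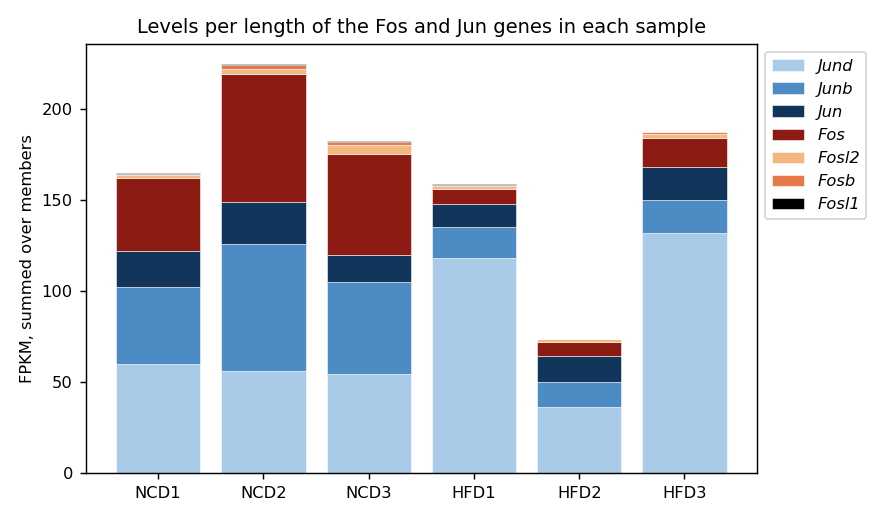
Stacked bars give the deposited FPKM of the 7 members in each sample, with the Jun genes in blue at the base and the Fos genes in red and orange above them. The *Fos* segment is 39.7 to 70.0 FPKM in NCD and 8.04 to 16.0 FPKM in HFD, and the bar of HFD2 is the shortest, with the smallest *Jund* segment.

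Within a diet, the members differed in how much they varied. The SD of log2 CPM about the diet means was 1.21 for *Fosb*, 0.70 for *Jund*, 0.57 for *Fosl2*, 0.49 for *Fos*, 0.30 for *Junb* and 0.27 for *Jun*, against a median of 0.31 over all genes tested. *Fosb* and *Jund* were thus among the most variable genes, with 99.3% and 93.1% of genes below them, but for *Jund* the spread lies in HFD, where HFD2 was low, and not in NCD. By this measure *Junb* and *Jun* varied like a typical gene. *Fosb* is also the least abundant of these 6 and rests on the fewest counts.

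Samples that were high for 1 member were often high for others. HFD3 was the highest HFD sample for all 6 members tested, and NCD2 the highest NCD sample for *Fos*, *Fosb*, *Jun* and *Junb*. NCD1 was the lowest NCD sample for *Fos*, *Fosb*, *Fosl2* and *Junb*, and HFD2 the lowest HFD sample for *Fosb*, *Fosl2*, *Junb* and *Jund*. Over deviations from the diet means of the 6 samples, Pearson's r was 0.86 between *Fos* and *Fosb*, 0.80 between *Fosb* and *Junb*, 0.79 between *Fosb* and *Fosl2* and 0.75 between *Fos* and *Junb*. *Fos* and *Fosb* stayed between 0.74 and 0.97 when 1 sample was left out. The value was -0.21 for *Fosl2* and *Jun*, from -0.49 to 0.77 without 1 sample, and 0.10 for *Jun* and *Jund*, from -0.28 to 0.63, so both signs turn on single samples. These values describe 6 libraries and carry no test, and the genes of a library share its depth and its RNA.

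Depth moved with some of these deviations. NCD1 and HFD2 are the deepest libraries of their diets and HFD3 is the shallowest of all. NCD3, the shallowest NCD library, was not high throughout, being the highest of its diet for *Fosl2* and the lowest for *Jun* and *Jund*. The share of counts from mitochondrially encoded genes was 3.20%, 4.24% and 6.57% in NCD1 to NCD3 and 4.16%, 3.51% and 5.77% in HFD1 to HFD3, lowest in the same 2 deep libraries. In a fit that also held the log2 total count of each library, the log2 fold change was -2.72 for *Fos*, -2.53 for *Fosb*, -1.29 for *Fosl2*, -0.38 for *Jun*, -1.89 for *Junb* and 0.39 for *Jund*. All 6 kept their direction, the 3 Fos genes and *Junb* lay farther below 0, and *Jund* lay nearer to it.

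**Figure D4:**
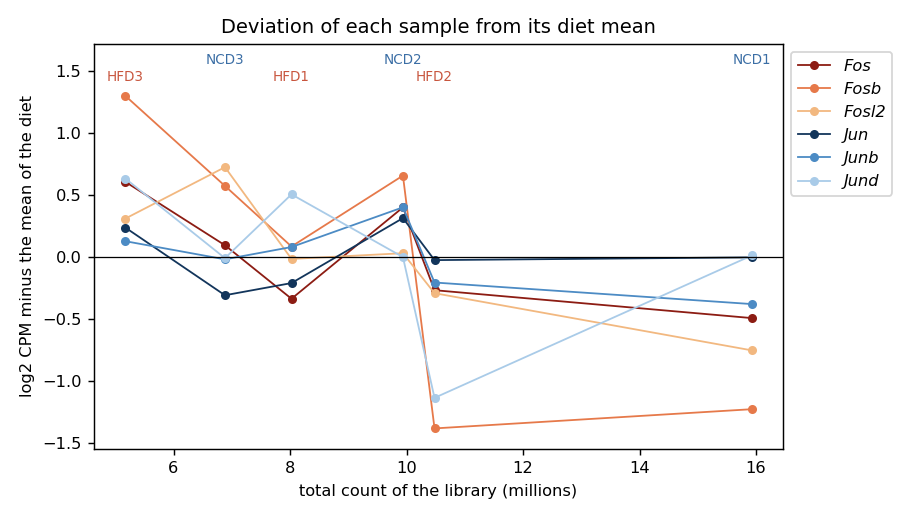
Each point is the log2 CPM of a member in a sample minus the mean of its diet, against the total count of the library, with lines joining the samples of 1 gene in the order of depth. *Fosb*, *Fos*, *Fosl2* and *Junb* lie below 0 in HFD2 and NCD1, the libraries with the most counts, and all 6 genes lie above 0 in HFD3, the library with the fewest.

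The genes whose log2 CPM over the 6 samples was most like that of each member were sought among 10491 genes with a mean of at least 10 CPM. *Fos* was followed most closely by *Egr4* (r = 0.990), *Egr1* (r = 0.990) and *Btg2* (r = 0.976), all of them immediate early genes. *Junb* was followed by *Egr4* (r = 0.982), *Arc* (r = 0.980) and *Egr1* (r = 0.971), also immediate early genes. These correlations include the difference between the diets, which the genes share. *Fosb* was followed by *Spata7*, *Pcnx3* and *Prkx*, *Fosl2* by *Sap130*, *Rims4* and *Tsc22d2*, *Jun* by *Scamp2*, *Wbp11* and *Zfp282*, and *Jund* by *Zfp740*, *Cd82* and *Mak16*, with r from 0.955 to 0.990. None of those 12 genes was called, and their log2 fold changes lay between -0.41 and 0.39. With 6 samples and this many candidates, high values of r arise readily, so they are a description only.

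The other immediate early genes are those that share the fast, activity-driven transcription of *Fos*. Of 22 tested, 20 had a log2 fold change below 0, 5 were called lower and none higher (0.0493% and 0.00705% of all genes), 10 passed the study's threshold lower (0.888%), and the median was -0.92 against 0.00 over all genes. The list was written with earlier results of these data known and is no independent evidence of its direction. The 5 that fell by edgeR's quasi-likelihood test were the zinc finger genes *Egr2* (-3.49 ± 0.43, adjusted p = 0.0108), *Egr1* (-2.27 ± 0.29, adjusted p = 0.0108) and *Egr4* (-2.21 ± 0.29, adjusted p = 0.0127), the nuclear receptor gene *Nr4a1* (-2.80 ± 0.24, adjusted p = 0.000503), and *Arc* (-1.61 ± 0.25, adjusted p = 0.0459), which encodes a synaptic protein named like the nucleus but unrelated to it. *Egr1* was at 118, 219 and 234 CPM in NCD1 to NCD3 and at 31.2, 35.9 and 51.2 CPM in HFD1 to HFD3, with NCD1 lowest of its diet and HFD3 highest of its diet as for *Fos*. *Nr4a1* was at 70.1, 92.0 and 73.3 CPM in NCD and at 8.82, 11.9 and 13.2 CPM in HFD. Both were apart between the diets in every sample. *Nr4a1* was the only gene of the table called without HFD1, without HFD2 or without NCD2, and without HFD3 only *Nr4a1* and *Egr1* of these 5 were called. The call of *Arc* was also lost without NCD1, with library totals alone, when a mean of 50 counts was required and with limma on FPKM, and that of *Egr2* with limma on FPKM.

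The other immediate early genes were not called. In all, 11 of the 22 were lower without overlap between diets, where 3.24% of all genes were. Of these, *Btg2* (-1.45 ± 0.24), *Nr4a3* (-2.07 ± 0.41) and the phosphatase gene *Dusp1* (-1.16 ± 0.22), which switches MAP kinases off, missed the threshold of the adjusted p in the fit of all samples, as did *Nr4a2* (-1.08 ± 0.44), *Ccn1* (-0.82 ± 0.31) and *Ier2* (-0.61 ± 0.30). *Klf6* (-0.01 ± 0.19), *Homer1* (-0.19 ± 0.20), *Ier5* (-0.15 ± 0.21), *Ier3* (0.20 ± 0.29) and *Nptx2* (0.19 ± 0.21) lay within about 1 SE of 0. *Npas4*, which responds to calcium entry in neurons, had at most 2.34 CPM in any sample and a log2 fold change of -1.27 ± 0.86. The remaining called gene of the table, *Hr*, a corepressor of nuclear receptors, rose from 6.96 to 27.4 CPM (1.98 ± 0.25, adjusted p = 0.0108) and belongs to none of these lists.

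The partners, regulators and reported targets of the family had no call in either direction. Of 9 partner bZIP genes tested of 12, 5 were below 0 and 4 above, with a median of -0.00. *Maff*, a small Maf protein gene, was the only one past the study's threshold (-1.42 ± 0.58), at 1.57, 2.54 and 3.76 CPM in NCD1 to NCD3 and 0.621, 0.69 and 1.69 CPM in HFD1 to HFD3, with overlap. *Atf3* (-0.35 ± 0.38) and *Atf2* (-0.24 ± 0.23), which pair with Jun proteins, lay within about 1 SE of 0. The 3 *Batf* genes were too low to be tested.

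Genes for the transcription factors and coactivators that act on the starts of *Fos* and *Junb* were measured in full, 17 of 17. Of these, 6 were below 0 and 11 above, with a median of 0.01 and a range from -0.45 (*Mrtfa*) to 0.33 (*Mef2c*). *Creb1* was at 0.06 ± 0.22, *Srf* at -0.28 ± 0.46, *Elk1* at -0.36 ± 0.26 and *Crtc1*, a coactivator of CREB, at -0.19 ± 0.19. Of 19 kinases of the ERK, JNK and p38 cascades, 14 were below 0 and 5 above, with a median of -0.07 and none past the study's threshold. *Mapk3*, which encodes ERK1, was at 0.21 ± 0.23, and *Mapk8*, which encodes JNK1, at 0.22 ± 0.33. *Rps6ka4* was not analysed here. These factors and kinases act through phosphorylation, which mRNA levels do not measure.

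Among 12 genes for the decay of *Fos* and *Jun* mRNA and the turnover of their proteins, 8 were below 0 and 4 above, with a median of -0.05. *Zfp36*, whose product binds AU-rich elements and hastens mRNA decay, was at -0.07 ± 0.35. *Itch* and *Ubr1*, both ubiquitin ligases, had no overlap between diets, at -0.54 ± 0.24 and -0.35 ± 0.19, and the other 10 overlapped. Over all genes, 3.24% were lower without overlap.

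Of 22 reported AP-1 target genes, 14 could be tested, 5 of them below 0 and 9 above, with a median of 0.11. None passed either threshold. The opioid precursor genes *Pdyn* and *Penk* were at -0.00 ± 0.24 and 0.13 ± 0.22, and *Pdyn* had a mean of 186 CPM under either diet, with an SD of 57.0 for NCD and 23.8 for HFD. *Plaur*, the urokinase receptor gene, was at -1.25 ± 0.60 without overlap between diets, but at 0.394 to 3.01 CPM it rests on few counts. *Timp1* (1.04 ± 0.62), *Sirt1* (0.79 ± 0.39) and *Vim* (0.50 ± 0.28) had the highest values of the list. The other 8 targets, among them *Ccl2* and *Il6*, were too low to be tested.

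**Figure D5:**
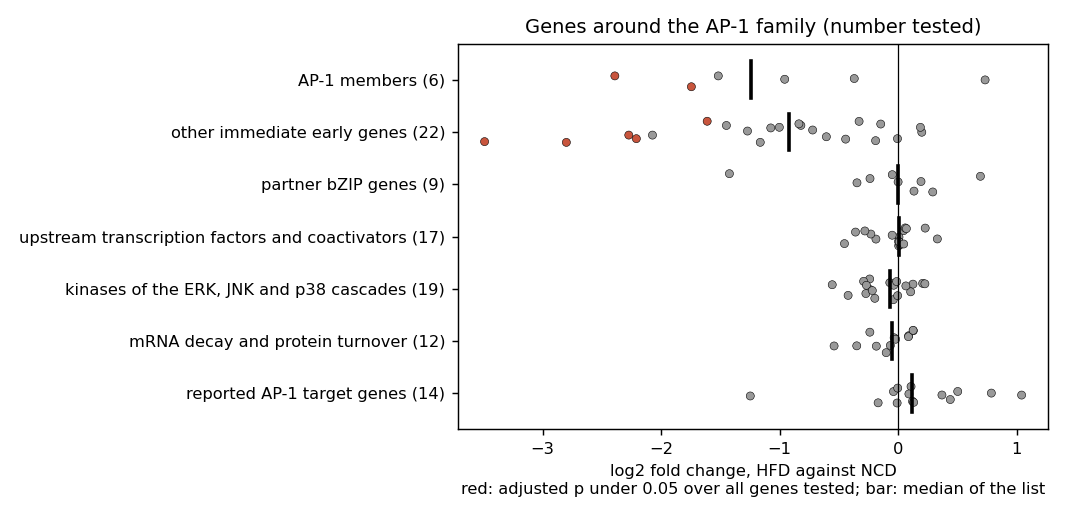
Each point is a gene tested, placed by its log2 fold change of HFD against NCD, with 1 line per list, red for an adjusted p under 0.05 over all genes and a black bar for the median. The members and the other immediate early genes (median -0.92) lie mostly below 0, whereas partners, upstream factors, kinases, turnover genes and reported targets have medians from -0.07 to 0.11; vertical scatter within a line has no meaning.

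Markers of the cell types in the captured area are given beside these values, since *Fos* and *Junb* are expressed in neurons, glia and vessels. No marker was called. The 7 neuron markers had a median of 0.04, 3 below 0 and 4 above, and summed to 3642, 3762 and 3559 CPM in NCD1 to NCD3 and 3184, 3779 and 3051 CPM in HFD1 to HFD3, *Snap25* being the most abundant. Of the 11 ARC neuron markers 10 were above 0, with a median of 0.21, and *Cartpt* (0.75 ± 0.25) and *Tac2* (0.60 ± 0.27), which encodes neurokinin B, passed the study's threshold. The 4 markers of the neighbouring ventromedial nucleus had a median of -0.09. Without 1 sample, that median ranged from -0.39 to 0.14, and that of the ARC neuron markers from 0.076 to 0.40.

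The median was -0.13 for 6 astrocyte markers, among which *Gfap* (0.88 ± 0.35) passed the study's threshold, -0.14 for 6 oligodendrocyte markers, 0.03 for 6 microglia markers and 0.08 for 6 endothelial markers, among which *Ly6c1* (0.81 ± 0.23) passed it, higher without overlap, and *Cldn5* (-0.48 ± 0.21), the claudin gene of the blood-brain barrier, was lower without overlap. The 6 tanycyte and ependyma markers had a median of 0.23 and summed to 193, 203 and 251 CPM in NCD1 to NCD3 and 291, 162 and 323 CPM in HFD1 to HFD3, high in HFD1 and HFD3 and lowest in HFD2, the order of *Jund* within HFD but not within NCD, where *Jund* hardly varied. *Crym* (0.89 ± 0.30) and *Col23a1* (0.91 ± 0.40) of this list passed the study's threshold. The 6 pericyte and smooth muscle markers were all below 0, with a median of -0.36, summed levels of 214, 186 and 158 CPM in NCD and 169, 185 and 156 CPM in HFD, and *Acta2* (-0.83 ± 0.28) and *Tagln* (-1.05 ± 0.39) past the study's threshold and lower without overlap. The 5 red blood cell genes were all below 0, with a median of -0.50, led by *Hba-a2*, and summed to 782, 2488 and 1966 CPM in NCD1 to NCD3 and 1687, 1156 and 824 CPM in HFD1 to HFD3, lowest of all in NCD1 and highest in NCD2, as *Fos* was within NCD, whereas within HFD the order was the reverse of that of *Fos*. Without 1 sample, the median of the tanycyte and ependyma markers ranged from 0.053 to 0.53. That of the pericyte and smooth muscle markers ranged from -0.53 to -0.19, and that of the red blood cell genes from -0.86 to -0.14. The part of vessel, blood and tanycyte content in the values of the members was not tested.

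Heat shock genes, which with the AP-1 genes respond to handling of tissue, had a median of -0.04 over 6 genes. *Dnajb1* was at 152, 149 and 172 CPM in NCD1 to NCD3 and at 105, 106 and 76.6 CPM in HFD1 to HFD3 (-0.72 ± 0.20), and *Hspb1* was higher in every HFD sample (0.63 ± 0.24). Both passed the study's threshold without overlap between diets, neither was called, and *Hspa8*, the most abundant, was at 0.05 ± 0.25. The part of such a response in the values of the members was not tested.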

How the data were processed

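RNA of LCM-captured ARC was enriched with oligo(dT) beads and sequenced on a NovaSeq. The authors cleaned the reads, screened them against a ribosomal database with bowtie2, aligned them with HISAT2 (mm10 per the labels) and derived gene values with StringTie and RSEM; versions and annotation are not given in the sources used here. The deposited table holds raw read counts per gene and sample, not normalized by the authors. It also holds FPKM, scaled by the authors to transcript length and mapped reads. Its columns of group means, fold changes, p-values and FDR, the authors' own comparison, were not used.

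Counts were filtered with filterByExpr, scaled with TMM and tested with edgeR 4.0.16's quasi-likelihood test (R 4.3.3, diet the only term, Benjamini-Hochberg adjustment over 14188 genes). TMM factors ranged from 0.967 to 1.04, and the biological coefficient of variation was 0.244. Log2 CPM used a prior count of 2. GENCODE M21 (GRCm38) gave symbols to 22267 of 22322 identifiers, and positions are 1-based. Total counts of 5171381 to 15925648 make 3 counts equal to 0.58 to 0.188 CPM, counting error only. With 3 samples against 3, an exact permutation test cannot give a p below 0.1. Replicates differed beyond counting noise.

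The members and all gene lists were chosen with earlier results of these data known, so the members' differences carry no p-value. Named are the members, genes of the lists, genes called at an adjusted p under 0.05 and, per member, the 3 genes most alike over the samples. Alternatives were RLE factors, library totals, DESeq2 1.42.0, at least 1 count, a mean of at least 50 counts, limma 3.58.1 on log2(FPKM + 1) for a mean FPKM of at least 0.5, the log2 total count as a covariate, a replicate block, and each sample left out. On simulated counts of HFD against NCD with 200 of 14188 genes changed, edgeR recovered 172 (86.0%), called 8 others and gave no wrong direction. The simulation gave every gene the same dispersion and set only changes of at least 1 on the log2 scale. Its recovered share is thus not the power of this comparison.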

Additional observations from a re-analysis of the deposited data

How the results depend on the processing

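Every member tested kept its direction under every alternative that could test it. The log2 fold change of *Fos* stayed between -2.75 and -2.17, of *Junb* between -1.93 and -1.52, of *Fosl2* between -1.29 and -0.53, of *Jun* between -0.51 and -0.20 and of *Jund* between 0.39 and 1.11, while *Fosb* ranged from -2.53 with the total count as a covariate to -0.67 on FPKM, where a pseudocount of 1 shrinks low genes, and was left untested when a mean of 50 counts was required. Genes called at an adjusted p under 0.05 numbered 8 in the reported fit, 19 with DESeq2, 15 with at least 1 count, 15 with the total count as a covariate, 5 with limma on FPKM, 17 with the replicate block, and 1 to 16 without 1 sample. Genes past the study's threshold numbered 270, 427 with at least 1 count, 179 when a mean of 50 counts was required, and 195 to 982 without 1 sample, highest without NCD3 and next, at 606, without HFD2. Members called numbered 2, 3 with the total count as a covariate, where *Fosl2* was added, and 0 to 2 without 1 sample. Members past the study's threshold numbered 4, 2 with limma on FPKM and 2 to 4 without 1 sample, lowest without NCD3 (*Fos* and *Junb*), while without HFD2 they were *Fos*, *Junb* and, as higher, *Jund*; DESeq2 and the filter of at least 1 count gave 5, with *Jund* added as higher. The median of a list moved by more than the spread between replicates for partner bZIP genes (0.14 when a mean of 50 counts was required), upstream factors (-0.14 with the total count as a covariate, -0.14 to 0.076 without 1 sample), turnover genes (-0.22 with the total count as a covariate), reported targets (0.019 to 0.17 without 1 sample), other immediate early genes (-0.63 with limma on FPKM), neurons (-0.16 to 0.094 without 1 sample) and microglia (0.20 with limma on FPKM). The causes were not tested. Whether the replicate numbers pair the samples was not stated. Deviations of samples with the same number correlated at -0.01, 0.11 and 0.37, and NCD1 was most like HFD2 (0.31). With 3 samples per diet, these values cannot decide whether the samples were paired. With the replicate block, *Fos* was at -2.40, *Junb* at -1.72, and 17 genes were called, including both and, of the other immediate early genes, also *Btg2* (adjusted p = 0.00338), *Nr4a3* (0.00427) and *Dusp1* (0.0214), which DESeq2 called too. Depth limits *Fosl1* and *Fosb* most, with 18 and 207 counts in all.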
